A study of Mus musculus with 6 samples.

Results

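P19 cells, a line derived from a mouse embryonal carcinoma, turn into neurons and afterwards into glia when they are aggregated with retinoic acid. RNA of undifferentiated cells (Day 0), of the neuronal stage (Day 7) and of the early stage of glia (Day 10) was hybridized to 6 exon arrays, a biological duplicate for each day. Before Day 7 and Day 10 the cultures were treated with 1 µM retinoic acid for 4 days, and the Day 0 cells were untreated. All arrays come from 1 cell line, and each RNA was taken from a whole culture, so that fewer cells of a type and less RNA per cell cannot be told apart.

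Described here are 586 probesets in 471 genes whose signal became larger relative to their gene on Day 7 while the gene itself stayed level. A probeset is a small group of probes that measures 1 exon or a piece of an exon. The intensity of each probeset was converted to log2(intensity + 16), and the level of a gene was the median of its probesets on that array. The share of a probeset, as the word is used below, is its log2 value minus the level of its gene. The members were chosen by these measured values themselves: genes with at least 6 probesets, a level of at least 7.5 on Day 0 and Day 7 and a change within 0.5 were kept, and a probeset became a member when its share was at least 1.0 higher on the Day 7 mean than on the Day 0 mean. Of 228090 probesets measured, 65938 lay in the 3965 kept genes, and 0.889% of those were members. The rise of the members from Day 0 to Day 7 is thus a description and carries no test.

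Most genes of vertebrates make several mRNAs from 1 transcript by joining different exons, and neurons use many short exons that other cells leave out. Which exons are joined is set by RNA-binding proteins such as those of the Ptbp, Rbfox, Celf, Elavl and Mbnl families. Alternative promoters and alternative ends of the transcript also change the share of an exon, and an array that measures exons 1 at a time cannot tell these events apart. Neuronal exons are well known in genes of the clathrin coat, of the microtubule and actin cytoskeleton, of adhesion molecules and of synaptic scaffolds.

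The study's supplementary list of exons gives the sequence of 44 members. The exons of that list had been chosen on these same arrays, and each of them next to at least 1 neighbour of steady share. The probeset sequences of 12 members are shown here, since the leading results below turn on them. Each is written as the list gives it and was taken to run 5′ to 3′ on the sense strand, which was not checked against a genome. Capitals mark the triplets TAA, TAG and TGA in any of the 3 reading frames. Each sequence is followed in the text below by its intensities.
Kif2a: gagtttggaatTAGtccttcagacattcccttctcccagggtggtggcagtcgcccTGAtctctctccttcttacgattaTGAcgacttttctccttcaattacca
Aff3: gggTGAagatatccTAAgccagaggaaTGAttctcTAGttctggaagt
Dlg3: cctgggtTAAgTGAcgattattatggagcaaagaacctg
Neo1, probeset 4604088: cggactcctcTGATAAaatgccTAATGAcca
Neo1, probeset 5491604: tttgttatTAAtgctccatacactccag
Clta: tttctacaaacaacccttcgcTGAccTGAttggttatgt
G3bp2: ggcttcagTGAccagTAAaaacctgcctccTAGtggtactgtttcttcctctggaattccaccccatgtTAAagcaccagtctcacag
Nfasc, probeset 4436418: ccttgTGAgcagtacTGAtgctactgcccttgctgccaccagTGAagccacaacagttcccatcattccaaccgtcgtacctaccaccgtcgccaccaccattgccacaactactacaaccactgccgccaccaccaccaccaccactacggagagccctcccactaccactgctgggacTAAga
Nfasc, probeset 5439373: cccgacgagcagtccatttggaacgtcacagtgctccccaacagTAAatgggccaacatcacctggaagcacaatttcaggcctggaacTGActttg
Abi2: ttgcTGAtggcttcacttctccaac
Aplp2: acactcagccggagttgtaccacccaatg
Tpd52l2: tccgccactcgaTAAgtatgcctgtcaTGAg
The probesets of Kif2a (chromosome 13), Aff3 (1), Dlg3 (X), Neo1 (9), Clta (4), G3bp2 (5), Nfasc (1), Abi2 (1), Aplp2 (9) and Tpd52l2 (2) were placed by the chromosome of their gene in RefSeq. The 44 sequences were between 25 and 372 bases long, with a median of 58.5. At least 1 frame without a stop triplet was found in 37 of them (84.1%), against 87.9% of the other 215 exons of the list, whose median length was 59.0. The copy of the list used here holds 259 exons, fewer than the published list. A sequence under 60 bases often has an open frame by its length alone, and 22 of the 44 were that short. Of the 22 longer ones, 15 were open.

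On Day 7 both arrays had a larger share than both Day 0 arrays for 524 of the 586 members (89.4%), against 16.1% of all probesets of the kept genes, a count that the rule itself pushes up. The median share of the members was -1.04 on Day 7, against -2.43 on Day 0. The members thus stood mostly under the level of their gene on both days. Of the 586, 100 lay above the gene level on Day 7, against 23 on Day 0, and 305 were still more than 1 under it on Day 7. The lower Day 7 array lay at least 1.0 above the higher Day 0 array for 131 members in 103 genes. A probeset of the kept genes with such a gap is always a member by the rule. The 0.199% of those probesets that passed are thus the same 131, and the count gives no support. The rise had a median of 1.23, quartiles of 1.10 and 1.46 and a maximum of 4.33, and it was 2 or more in 35 members and 3 or more in 6. For comparison, the 5th and 95th percentiles over all 65938 probesets were -0.47 and 0.53.

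**Figure D1:**
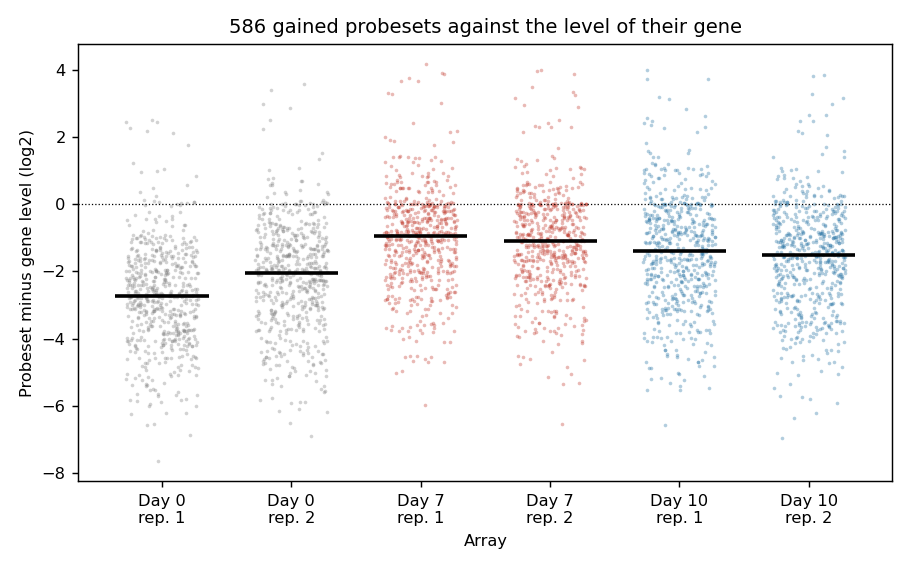
Share of each of the 586 members (probeset minus gene level, log2, vertical axis) on each of the 6 arrays (horizontal axis), 1 point per member, with the median of each array as a black bar. The medians were -2.72 and -2.04 for Day 0, -0.96 and -1.10 for Day 7, and -1.40 and -1.51 for Day 10.

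The members were dim exons, and the Day 0 duplicates differed for many of them. Their median intensity was 58.6 and 119 for the Day 0 duplicates, 231 and 215 for those of Day 7, and 109 and 152 for those of Day 10, while that of all probesets of the kept genes lay between 344 and 573. An intensity under the offset of 16 was found for 13 and 15 members on the Day 7 duplicates, against 135 and 84 on those of Day 0. The shares of the Day 0 duplicates were more than 1 apart for 256 members (43.7%), against 6.13% of all probesets of the kept genes, and replicate 1 was the lower array in 212 of these. On Day 7 the duplicates were more than 1 apart for 42 members (7.17%), against 1.82% of all probesets of the kept genes, and on Day 10 for 142 members (24.2%), against 12.1%. Across genes, the gene levels of the duplicates correlated with r = 0.968 for Day 0, 0.982 for Day 7 and 0.956 for Day 10, and the level of the kept genes was higher in replicate 2 by a median of 0.58 on Day 10.

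When the members were chosen on 1 array per day, most of them were not past 1.0 in the other pair of arrays. Applied to replicate 1 alone, the rule chose 2023 of 56693 probesets. In replicate 2 these had a median change of 0.02, which is that of all probesets, and 7.81% of them were past 1.0, against 1.53% of all. Applied to replicate 2 alone, it chose 743 of 63120 probesets. In replicate 1 their median change was 0.18, against -0.02 over all probesets, and 20.3% were past 1.0, against 3.61% of all. In both directions the percent past 1.0 was larger among the chosen ones than over all, and in both directions it was a minority. Falls of more than 1.0 were also more frequent among the chosen ones than over all, whichever replicate chose. Of those chosen on replicate 1, 51.3% were above 0 in replicate 2, against 52.4% of all. The 7.81% there thus came with a wider spread and without a shift upward. Of those chosen on replicate 2, 56.8% were above 0 in replicate 1, against 47.6% of all. Without Day 0 replicate 1 the rule on the remaining arrays chose 642 probesets, which included 232 of the 586, and without Day 0 replicate 2 it chose 1693, which included 396. A set of 94 members in 77 genes was chosen whichever Day 0 or Day 7 array was left out, a criterion added after the values were seen.

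**Figure D2:**
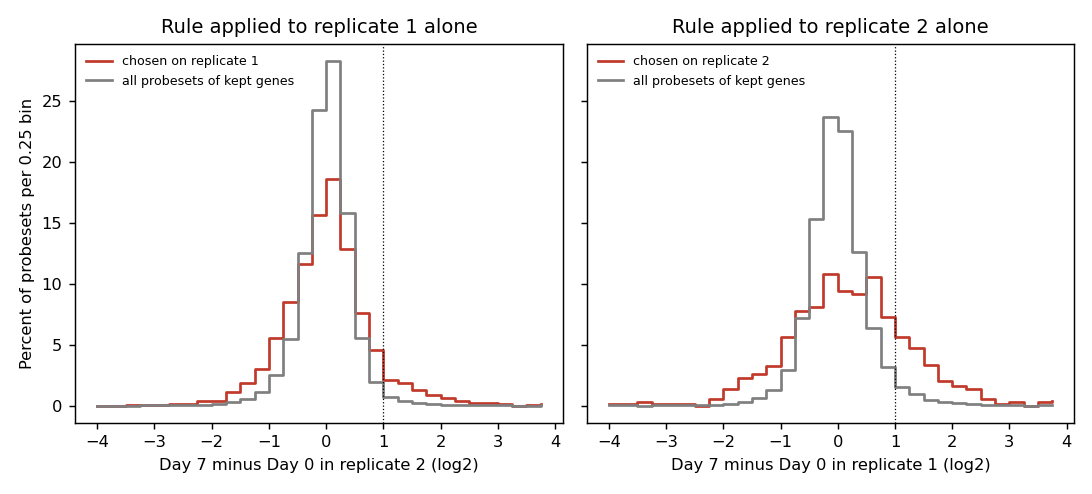
Change of share from Day 0 to Day 7 (log2, horizontal axis) in the replicate that the rule did not use, as the percent of probesets per bin of 0.25 (vertical axis), for probesets chosen on the other replicate (red) and for all probesets of the genes kept (grey). The end bins hold all values beyond them, and the dotted line stands at 1.0, past which lay 7.81% against 1.53% (left) and 20.3% against 3.61% (right).

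Members of genes of the cytoskeleton and its motors had the 2 largest rises. Clasp2 encodes a protein that binds the growing ends of microtubules. Its leading probeset (5207664) had intensities of 34.6 and 25.3 on Day 0, 974 and 1123 on Day 7 and 676 and 264 on Day 10, while the level of the gene was 9.94 on Day 7, against 9.73 on Day 0. Both Day 7 arrays stood far above both Day 0 arrays, with a rise of 4.26 in replicate 1 and 4.41 in replicate 2. Another of the 45 probesets of Clasp2 (4502308) rose by 2.22, with intensities of 164 and 177 on Day 7, against 16 and 21.6 on Day 0. Kif2a encodes a kinesin that shortens microtubules, and its probeset had 17 and 5.93 on Day 0, 221 and 293 on Day 7 and 88.3 and 80.1 on Day 10. The probeset before it in Kif2a had 2194 and 2022 on Day 7, against 1606 and 1634 on Day 0, so that this neighbour changed its share by 0.30 while the exon rose by 3.26. The probeset after it lay between 0.0118 and 35.2 on all 6 arrays. Abi2, an adaptor of the complex that drives actin branching, held 4 members. The probeset shown above had intensities of 964 and 1157 on Day 7, against 417 and 294 on Day 0, and its neighbours changed their share by 0.12 and 0.02.

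Genes of membrane traffic and endocytosis held 18 members in 17 genes, which is 0.810% of the probesets of that list, against 0.889% over all kept genes. The probeset of Clta, a clathrin light chain with a neuronal exon, had intensities of 189.8 and 173 on Day 0, 1119 and 1437 on Day 7 and 657 and 484 on Day 10. The level of the gene was 11.14 on Day 7, against 11.17 on Day 0, and the groups did not overlap. The probeset before the exon of Clta had 4102 and 3220 on Day 7, against 4851 and 4132 on Day 0, and the probeset after it had 2074 and 2378 on Day 7, against 1530 and 2558 on Day 0. Tpd52l2, a gene of vesicle traffic, held a probeset of 435 and 446 on Day 7, against 91.0 and 202 on Day 0. A probeset of Sec24b, which encodes a subunit of the coat of vesicles that leave the endoplasmic reticulum, had 288 and 363 on Day 7, against 35.3 and 142 on Day 0. A probeset of Fchsd2, a membrane-bending protein, had 57.1 and 334 on Day 7, against 9.22 and 39.9 on Day 0, and here the Day 7 duplicates were far apart.

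Adhesion and guidance receptors included Neo1 and Nfasc, each with 2 members. Neo1 encodes neogenin, a receptor for netrins and for repulsive guidance molecules. Probeset 4604088 of Neo1 had intensities of 0.0799 and 4.19 on Day 0, 144 and 146 on Day 7 and 30.9 and 85.6 on Day 10. Probeset 5491604 was the other member of Neo1 and had 108 and 153 on Day 0, 486 and 521 on Day 7 and 206 and 304 on Day 10. Its share rose by 1.64. On Day 10 its share lay 1.65 under Day 7 (SE 0.23, unadjusted p = 3.33e-04 from limma, adjusted p = 0.859), which put the share level with Day 0. The rule had picked this member for a high Day 7 share, which favours a lower share on Day 10, so the fall gives no support. The level of the gene was 11.14 on Day 10, against 10.45 on Day 7, and this higher level is part of the lower share. The intensities of the probeset on Day 10 were still above those of Day 0. Nfasc encodes neurofascin, an adhesion molecule of the axon initial segment and the nodes. Its probeset 4436418 had 622 and 764 on Day 7, against 151 and 135 on Day 0, and the neighbour before it was the second member of the gene, with 54.6 and 119 on Day 7, against 27.5 and 23.6 on Day 0. The neighbour after it changed its share by 0.13. Aplp2 belongs to the family of the amyloid precursor protein, and its probeset had 684 and 826 on Day 7, against 217 and 151 on Day 0, and 896 and 806 on Day 10. A probeset of Celsr3, a cadherin of axon tracts, rose by 3.58 in replicate 2 and by 0.65 in replicate 1, and rested on a Day 0 intensity of 0.0889.

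Scaffolds and kinases made up a further group. Dlg3 encodes a scaffold protein of excitatory synapses, and its probeset shown above had intensities of 1.73 and 10.5 on Day 0, 275 and 186 on Day 7 and 43.5 and 43.2 on Day 10. The neighbour before it had 467 and 412 on Day 7, against 435 and 579 on Day 0, and the neighbour after it had 950.2 and 851 on Day 7, against 868 and 945 on Day 0. The exon was thus close to 0 on Day 0 beside neighbours of ordinary brightness. Mapk8 encodes the kinase JNK1, and its member had 2518 and 3404 on Day 7, against 798 and 516 on Day 0. The member of Cask, a scaffold kinase of synapses, had 1845 and 1859 on Day 7, against 406 and 572 on Day 0, and 1498 and 1838 on Day 10. The member of Pde4dip, a scaffold of the centrosome and Golgi, had 97.6 and 121 on Day 7, against 9.36 and 17.4 on Day 0. The member of Mtor, the kinase of growth control, had 157 and 170 on Day 7, against 145 and 0.0342 on Day 0, so that its rise of 2.32 came from 1 array.

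**Figure D3:**
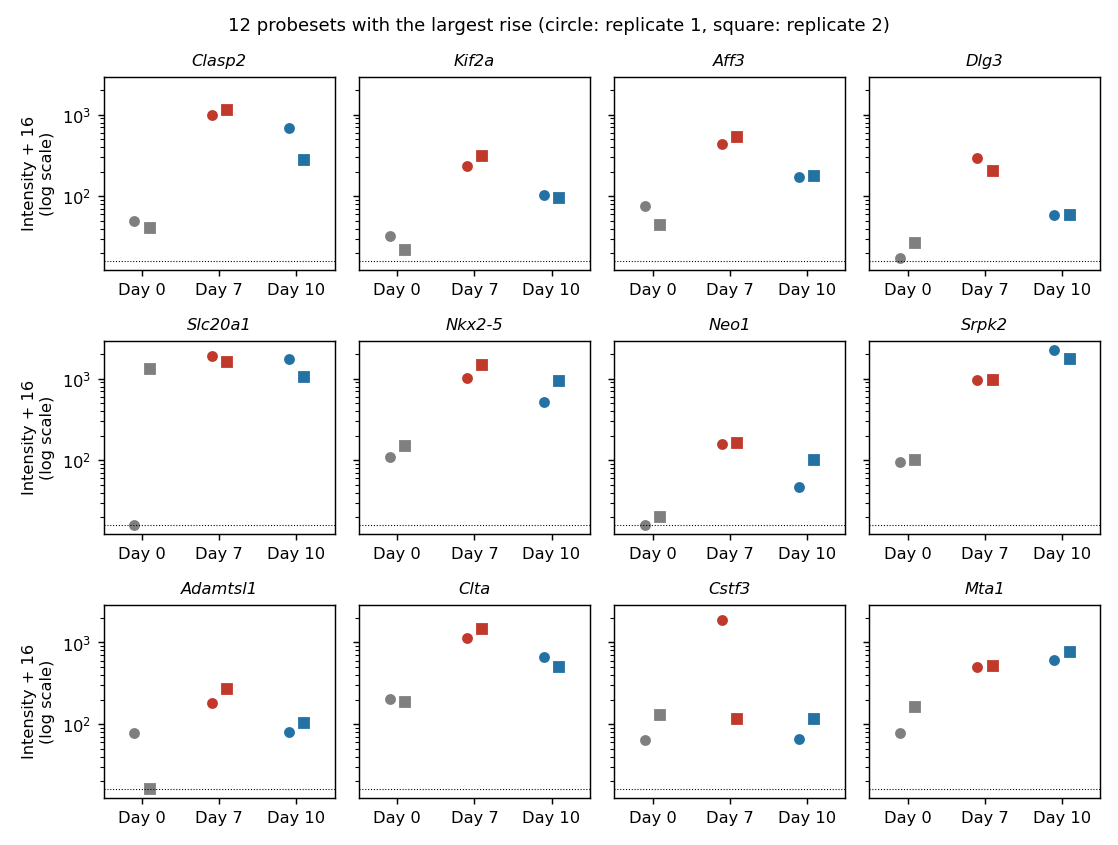
Intensity + 16 (log scale, vertical axis) on the 3 days (horizontal axis) for the 12 members with the largest rise, 1 panel per member, with a circle for replicate 1, a square for replicate 2 and a dotted line at an intensity of 0. The Day 7 points of Clasp2 (974 and 1123) stood far above those of Day 0 (34.6 and 25.3), while Slc20a1 rested on 1 Day 0 array (0.218 against 1300) and Cstf3 on 1 Day 7 array (1870 against 101).

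Genes of transcription and chromatin included Aff3 and Mta1, beside Nkx2-5, which was outside that list. Aff3 encodes a nuclear factor that works in the elongation of transcripts, and its exon had intensities of 60 and 28.7 on Day 0, 422 and 519 on Day 7 and 155 and 161 on Day 10. The neighbour before the Aff3 exon had 290.3 and 289 on Day 7, against 327 and 471 on Day 0, and the neighbour after it had 282 and 255 on Day 7, against 394 and 401 on Day 0. Mta1, a subunit of a nucleosome remodelling and deacetylase complex, held a member of 62.5 and 145 on Day 0, 489.6 and 501 on Day 7 and 592 and 741 on Day 10. In the same gene probeset 5079552 fell by 2.19, where 1 Day 7 array was at 0.0541. Nkx2-5 encodes a transcription factor of the heart, and its member had 1008 and 1455 on Day 7, against 93.3 and 135 on Day 0. The gene level of Nkx2-5 was 7.73 on Day 7, against 7.59 on Day 0, close to the lower limit of the rule, and the gene had only 7 probesets. Another of these, probeset 5307171, changed its share by -1.08, with 262 and 372 on Day 7, against 781 and 486 on Day 0. Of 7 tested markers of mesenchyme and muscle, 6 were higher on Day 7, with a median level of 10.24 and 11.20 on Day 7, against 6.71 and 6.40 on Day 0. Their part in the rises of Nkx2-5 and of the calcium pump gene Atp2a2 was not tested.

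Genes of RNA binding and splicing held 25 members in 14 genes. That is 1.63% of the probesets of that list, against 0.889% over all kept genes, a comparison that has no test. Srpk2 encodes a kinase of SR splicing factors and had 3 members, of which probeset 5170316 had intensities of 79.8 and 84.0 on Day 0, 932 and 939 on Day 7 and 2236 and 1730 on Day 10. This probeset was among the 115 members whose share was as large or larger on Day 10 than on Day 7. Qk encodes a STAR-family RNA-binding protein and had 4 members in a gene whose level was 10.07 on Day 7, against 10.18 on Day 0. Its leading member had 1177 and 861 on Day 7, against 225 and 287 on Day 0, and the other 15 probesets of Qk changed by no more than 0.5. Srsf7, a splicing factor of the SR family, had 4 members among 16 probesets, and only 6 of the other 12 changed by 0.5 or less. G3bp2 encodes a protein of stress granules, and its exon had 685 and 716 on Day 7, against 119 and 122 on Day 0. The member of Celf1, a regulator of splicing and of mRNA decay, had 621 and 617 on Day 7, against 174 and 609 on Day 0, where Day 0 replicate 2 stood beside the Day 7 arrays.

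Single arrays were very low or very high in the remaining leading members. Slc20a1 encodes a phosphate transporter, and its member had 1867 and 1559 on Day 7, against 0.218 and 1300 on Day 0. Cstf3 encodes a subunit of a cleavage factor at the 3′ end of mRNA, and its member had 1870 and 101 on Day 7, against 47.9 and 113 on Day 0, so that the intensities of the 2 days overlapped. The member of Adamtsl1, a secreted matrix protein, had 166 and 251 on Day 7, against 62.2 and 0.0663 on Day 0, and the share of its lower Day 7 array was still more than 1.0 above that of its higher Day 0 array.

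At the threshold itself, the members just inside were probesets of Tpp2 (1.0003), Eps15l1 (1.0001) and Hyi (1.0), and those just outside were probesets of Mtf1 (0.998), Ap2a1 (0.9978) and Nup133 (0.9971). Eps15l1, whose probeset had intensities of 25.6 and 29.5 on Day 7, against 9.77 and 13.3 on Day 0, is an example of a member close to the offset.

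A single member was found in 394 genes, and 77 genes held 2 or more, with 192 members among them. Members of 1 gene share the gene level in their rise and can measure 1 event. Abcc5, which encodes a transporter of the ABC family, held 6 of them among 42 probesets. Their rises lay between 1.12 and 2.22, and the other 36 probesets of Abcc5 changed by 0.5 or less. The leading probeset of Abcc5 had 171 and 291 on Day 7, against 13.5 and 45.1 on Day 0. Tsc22d1, a transcriptional regulator with a leucine zipper, held 5 members among 22 probesets, and 4 of these stood above the gene level on all 6 arrays. Its brightest member (5518089) had 2810 and 3482 on Day 7, against 1005 and 682 on Day 0. Atp2a2 encodes a calcium pump of the endoplasmic reticulum and held 5 members among 28 probesets, with rises between 1.23 and 1.49, while the other 23 changed by 0.5 or less. All 5 members of Atp2a2 had larger shares on both Day 7 arrays than on both Day 0 arrays. So did 89.4% of all members, a percent that the rule pushes up, and 16.1% of all probesets of the kept genes. Tcf4, a basic helix-loop-helix transcription factor, held 4 members, and the leading one had 806 and 831 on Day 7, against 146 and 82.9 on Day 0. Dlg3 held 3 further members with rises of 1.36, 1.23 and 1.19.

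**Figure D4:**
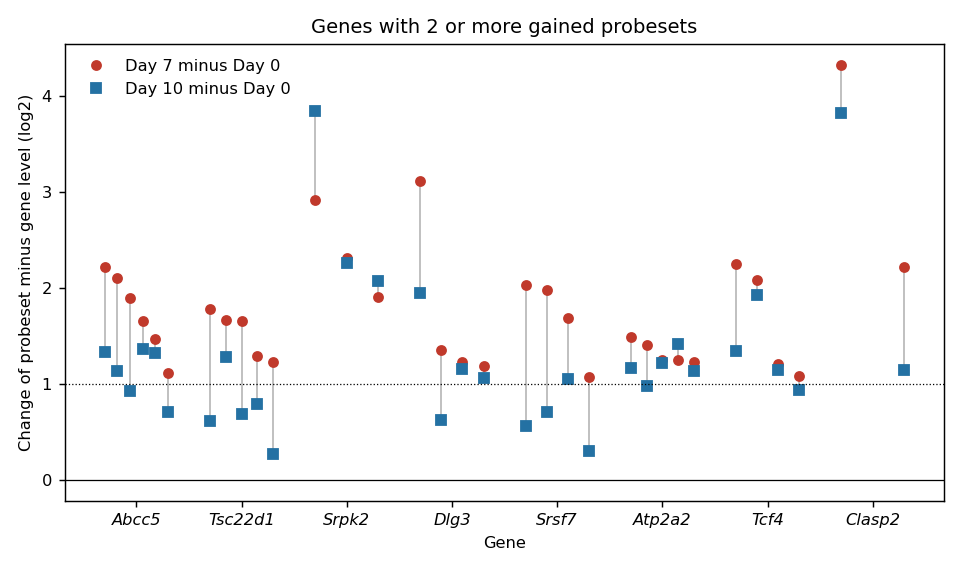
Change of share against Day 0 (log2, vertical axis) on Day 7 (circles) and on Day 10 (squares) for every member of the 8 genes with 2 or more members and the largest summed rise (horizontal axis), with a grey line joining the days of a member. The dotted line stands at the threshold of 1.0 on Day 7. Atp2a2 shows 5 members within a narrow range (1.23 to 1.49), and the leading member of Srpk2 was higher on Day 10 (3.85) than on Day 7 (2.92).

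Of the 471 genes, 30 also held a probeset that fell by 1.0 or more. In all, 280 probesets of 245 kept genes fell, against the 586 that rose. This balance depended on the arrays and the normalization. Without Day 0 replicate 1, 749 fell and 642 rose. Without Day 7 replicate 1, 617 fell and 667 rose, and with quantile normalization 403 fell and 462 rose. Under the other settings tried more rose than fell. Neighbours of the 44 listed exons were steadier than the exons, as the study's choice of them requires for 1 side. Of 84 neighbours measured, 70 changed their share by 0.5 or less and 3 rose by 1 or more, with a median of 0.09.

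Every list of gene functions had a few genes with a member. Over all kept genes, 471 of 3965 (11.9%) had a member. The count was 17 of 115 for membrane traffic and endocytosis, 12 of 70 for the cytoskeleton and motors, 8 of 31 for adhesion and guidance receptors, 13 of 76 for transcription and chromatin, 14 of 83 for RNA binding and splicing and 17 of 130 for scaffolds, kinases and GTPase regulators. Of 18 kept genes with a known neuronal exon, 4 had a member (Clta, Nfasc, Aplp2 and Cask), and of 6 kept splicing regulators, 2 had (Qk and Celf1). Genes with more probesets can hold a member more easily, and member genes had a median of 18 probesets, against 14 over the kept genes. The percent of genes with a member lay between 13.1% and 33.3% in the 8 lists, which were chosen with earlier results known and have no test. Counted per probeset the lists did not all lie above the 0.889% of all kept genes. Members made up 0.785% of the probesets for scaffolds, kinases and GTPase regulators, 0.810% for membrane traffic and endocytosis, 0.929% for the cytoskeleton and motors and 0.965% for genes with a known neuronal exon. The percent was 1.11% for adhesion and guidance receptors, 1.15% for transcription and chromatin, 1.63% for RNA binding and splicing and 5.21% for the splicing regulators, where it rests on 5 members. The lists were matched in part by the opening letters of a symbol, which put Unc50 and the noncoding Rab10os among them.

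On Day 10 the members mostly stood between their shares on Day 0 and on Day 7. The Day 10 mean was under the Day 7 mean for 471 members, between Day 0 and Day 7 for 435 and at or under the Day 0 mean for 36. The median share of the members was -2.43 on Day 0, -1.04 on Day 7 and -1.50 on Day 10. Both comparisons share arrays with the rule, which picked the members for a high Day 7 and a low Day 0, so a return toward Day 0 is favoured by the choice and gives no support. Against Day 7, both Day 10 arrays lay under both Day 7 arrays for 259 members, where 15.7% of the probesets of the kept genes did so. Against Day 0, both Day 10 arrays lay above both Day 0 arrays for 323 members, where 17.7% of those probesets did so. limma, fitted over the 65938 probesets, called 0 (0%) higher and 0 lower on Day 10 than on Day 7 at an adjusted p under 0.05, with 0.859 as the lowest adjusted p of all probesets. With no adjustment, a limma p under 0.05 was reached by 85 members (14.5%) that were lower and 5 that were higher, beside 1218 (1.85%) and 1442 (2.19%) of all probesets. Against Day 0 limma likewise called 0 probesets (lowest adjusted p = 0.535), and its p before adjustment was under 0.05 for 229 members that were higher (39.1%) and 0 that were lower, beside 2250 (3.41%) and 1836 (2.78%) of all probesets.

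Day 10 was also followed in the replicate that did not choose. The probesets chosen on replicate 2 alone had, in replicate 1, a median share 0.75 higher on Day 10 than on Day 0, against 0.05 over all probesets, and 37.4% of them were past 1.0, against 6.07%. The probesets chosen on replicate 1 alone had, in replicate 2, a median of -0.13, against 0.01 over all, with 5.88% past 1.0, against 1.49%. Against Day 7, the Day 10 share of those chosen on replicate 2 had a median difference of 0.48 in replicate 1, where all probesets had 0.06. For those chosen on replicate 1 it was -0.15 in replicate 2, where all probesets had 0.00. The outcome thus depended on which replicate chose the members, also in its direction.

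Among single members, the Day 10 share was larger than that of Day 7 by 0.93 for the leading member of Srpk2, by 0.60 for that of Mta1 and by 0.09 for that of Cask, with an adjusted p of 0.859 or more from limma for each. Members of Neo1 and G3bp2 went the other way, which the choice of members for a high Day 7 share favours. The G3bp2 exon had 128 and 247 on Day 10, against 685 and 716 on Day 7. The level of the gene was 9.93 on Day 10, against 10.68 on Day 7, so that the share lay 1.13 lower on Day 10 (SE 0.30, adjusted p = 0.859, limma). For Neo1 probeset 4604088 the Day 10 share lay 1.91 under that of Day 7 (SE 0.31, unadjusted p = 6.92e-04 from limma, adjusted p = 0.859). Here too the level of the gene was higher, with 11.14 on Day 10, against 10.45 on Day 7. The Day 10 duplicates differed in their markers: those of pluripotent or embryonal carcinoma cells had a median level of 6.54 in replicate 1 and 9.10 in replicate 2, and their part in the shares of Day 10 was not tested. The 94 members chosen whichever array was left out had a median rise of 1.58, and on Day 10 their median share was 0.46 under that of Day 7, with 54 of them still at least 1.0 above Day 0. These 94 included the leading probesets of Clasp2, Kif2a, Aff3, Dlg3, Neo1, Clta and Mta1, and 23 of the 60 members named by rule. They included none of the members of Abcc5, Tsc22d1, Srpk2, Srsf7, Tcf4, Abi2, Nkx2-5, Slc20a1, Adamtsl1 and Cstf3, each of which was lost when some 1 array was left out. The limits on the level and change of the gene were reapplied each time, so that a loss need not come from the rise itself. For all 3 members of Srpk2 and for that of Nkx2-5, the lower Day 7 share lay at least 1.0 above the higher Day 0 share. The same held for 131 members (22.4%). This gap is taken from the values that the rule used and gives no support.

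Many RNA-binding proteins that regulate neural splicing were higher on Day 7. Of 27 tested regulators, limma called 13 higher, 1 lower and 13 in neither direction on Day 7 against Day 0, beside 11.3% and 4.67% of 12264 genes higher and lower. The median change of the list was 0.75, against 0.10 over all genes tested. Rbfox1, a neuronal factor that binds next to alternative exons, had gene levels of 8.93 and 9.14 on Day 7, against 6.03 and 6.23 on Day 0 (log2 change 2.90, SE 0.31, adjusted p = 3.18e-05, limma). Celf4, a neuronal regulator of RNA, had gene levels of 8.71 and 9.26 on Day 7, against 6.17 and 6.38 on Day 0 (adjusted p = 6.63e-05, limma). The neuronal Elavl genes Elavl2, Elavl3 and Elavl4 had changes of 1.69, 2.52 and 2.66 and were called, while the widely expressed Elavl1 had one of 0.20 and was not. The muscleblind genes Mbnl1, Mbnl2 and Mbnl3 had changes of 1.70, 1.59 and 1.91 and were called. The others called higher were Celf2 (2.15), Celf3 (1.97), Celf6 (1.68), Khdrbs2 (1.38) and Rbfox2 (1.36). Of these calls, 4 were lost without single arrays in limma: Rbfox2 without Day 0 replicate 1 or either Day 7 array (highest adjusted p = 0.0737), Celf3 without Day 0 replicate 1 or Day 7 replicate 2 (0.168), Mbnl2 without Day 7 replicate 1 (0.0870) and Khdrbs2 without Day 7 replicate 2 (0.105).

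The repressors of neuronal exons in other cells did not pass. Ptbp1, which keeps many neuronal exons out of mRNA, had gene levels of 11.57 and 11.48 on Day 7, against 11.94 and 12 on Day 0 (log2 change -0.44, SE 0.30, adjusted p = 0.396, limma). Both Day 7 arrays lay under both Day 0 arrays, by less than the test could call. Its relative Ptbp2, which follows it in developing neurons, had a change of -0.21, and Ptbp3 one of 0.75. Rbm38 was the regulator called lower, with gene levels of 7.84 and 8.21 on Day 7, against 9.29 and 9.33 on Day 0 (adjusted p = 0.00927, limma), a call lost without Day 7 replicate 1 (adjusted p = 0.185, limma). The epithelial regulators Esrp1 and Esrp2 had changes of -0.81 and -0.51, and Qk and Celf1, which held members, changes of -0.11 and -0.23, and none of these 4 passed. The remaining regulators, Srrm3 (0.57), Khdrbs1 (0.14), Khdrbs3 (0.65), Srsf10 (0.56) and Raver1 (-0.77), did not pass either.

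On Day 10 against Day 7, limma called 0 of the 27 regulators higher and 1 lower, with 0 and 11 at an unadjusted p under 0.05, beside 0.367% of all genes called higher and the same percent lower. The regulator called was Elavl3, with gene levels of 8.83 and 8.79 on Day 10, against 10.13 and 10.41 on Day 7 (log2 change -1.46, adjusted p = 0.0412, limma). The call was lost when each array was centred on its median (adjusted p = 0.0727, limma), where the median gene tested had moved by -0.22, with an offset of 1 (0.0633), and without either Day 7 array or Day 10 replicate 1 (highest adjusted p = 0.287). Mbnl2 was the regulator with the largest positive change among those not called, with 9.33 and 9.39 on Day 10, against 9.05 and 8.46 on Day 7.

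**Figure D5:**
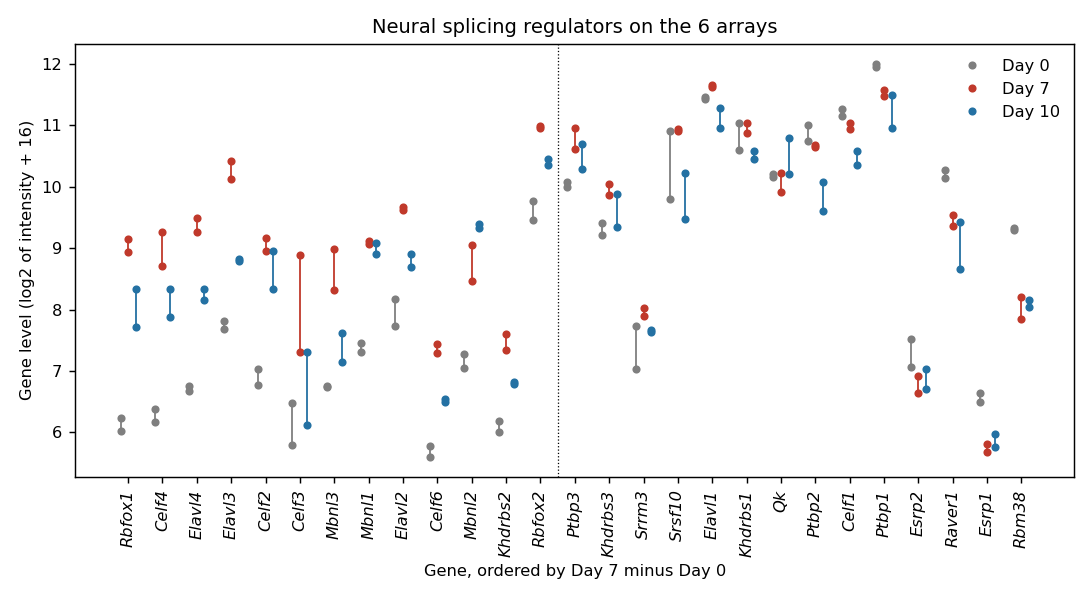
Gene level (log2 of intensity + 16, vertical axis) of the 27 tested splicing regulators (horizontal axis, ordered by the change from Day 0 to Day 7) on the 2 arrays of each day, joined by a line. Left of the dotted line are the 13 called higher on Day 7. Rbfox1 stood at 8.93 and 9.14 on Day 7, against 6.03 and 6.23 on Day 0.

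The cell types behind the days were checked with marker genes. The median levels of marker lists, here and above, are over the listed genes with at least 4 probesets, whether or not they were tested. On Day 7 against Day 0, 9 of 10 neuron markers were called higher, with median levels of 10.74 and 10.93 on Day 7, against 6.98 and 7.30 on Day 0, and 4 of 5 markers of pluripotent or embryonal carcinoma cells were called lower, with 6.10 and 6.64 on Day 7, against 10.36 and 10.45 on Day 0. Of 6 markers of astrocytes or radial glia 3 were called higher, with 8.52 and 8.33 on Day 7, against 5.81 and 6.10 on Day 0. Of 5 markers of oligodendrocytes and 4 of endoderm limma called 0 in either direction, with 0 and 1 of them at an unadjusted p under 0.05, and their median levels stayed between 5.94 and 6.81 on Day 0 and Day 7. Markers of neurons, of mesenchyme or muscle and of glia were thus higher on Day 7 side by side. On Day 10 against Day 7, limma called 1 of the 10 neuron markers lower, and all 10 were lower at an unadjusted p under 0.05. Their median levels on Day 10 were 9.54 and 9.01. Called higher were 2 of 6 markers of astrocytes or radial glia (9.10 and 10.41) and 1 of 5 of pluripotent or embryonal carcinoma cells. Of the other 3 lists 0 were called. The part of these cells in the shares of the members was not tested.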

How the data were processed

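Affymetrix Mouse Exon 1.0 ST arrays were measured on Day 0, Day 7 and Day 10, in biological duplicate. The authors deposited linear intensities, 1 per exon probeset, for 228090 probesets. The study's methods name PLIER after sketch normalization. RMA and the Affymetrix Expression Console stand in the submitters' processing notes, without versions. Probeset coordinates and detection p-values were not used here.

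Probesets were grouped by the symbol of the array annotation (208093 with 1 symbol, 4327 with several, 15670 with none). Of 16285 symbols, 14111 were current in RefSeq GRCm38.p6, 2106 were updated and 68 were kept as annotated. Levels were log2(intensity + 16), which understates the changes of dim exons. The members and the gene lists were chosen with earlier results of these data known. Probeset shares and gene levels were fitted over all 6 arrays with limma (3.58.1, R 4.3.3), for genes with at least 4 probesets and a mean level of at least 6 on some day where gene levels were tested, with Benjamini-Hochberg adjustment, and the fits were tested on simulated data. The members and fits were recomputed with other offsets, gene summaries, thresholds and normalization, with a replicate block and without each array.

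Named members were the 12 with the largest rise, every member of up to 8 genes with 2 or more members and the largest summed rise, up to 4 per gene list, up to 15 with a listed sequence, and 3 on each side of the threshold. The second members of Neo1 and Nfasc, the probeset of Mta1 that fell and the count of the 94 members were added after their values were seen. The number of arrays limits the precision.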

Additional observations from a re-analysis of the deposited data

How the results depend on the processing

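The number of members moved with the settings that define them. It was 1098 with an offset of 1 and 316 with an offset of 50, which included 531 and 283 of the 586. It was 318 with the gene change held within 0.25, 951 within 1.0, 359 with a gene level of at least 8.5 and 205 with a stricter threshold of the rise. Leaving out 1 array gave between 642 and 1693 members, and 94 were chosen whichever Day 0 or Day 7 array was left out, a setting chosen after seeing the data. The other gene summaries, quantile normalization and a Day 7 intensity of at least 64 gave between 452 and 641, within 1.5 times 586.

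The percent past 1.0 in the replicate not used kept within 1.5 times its value with the offsets of 1 and 50, with quantile normalization and with the gene level from the other probesets. When an array was left out of a fit, the remaining array of that day was assumed to vary like the others. In the fits of Day 10, limma called 0 members under all alternatives run. The regulators called higher on Day 7 numbered between 10 and 14 under the alternatives run. Those called lower, 1 in the fit reported, numbered 3 with only the 4 arrays compared, 3 with each array centred on its median, 2 with an offset of 1, 3 with quantile normalization and 0 to 3 without 1 array. On Day 10 against Day 7 the number called lower was 0 with each array centred, 0 with an offset of 1 and 0 to 4 without 1 array. Same-numbered arrays did not deviate together on all days (correlations of gene levels of 0.34 for Day 10 and Day 0, -0.06 for Day 7 and Day 0 and -0.01 for Day 10 and Day 7). For probeset shares the correlations were 0.36, -0.20 and -0.17 in the same order. Whether same-numbered arrays share more than a number cannot be told from duplicates. With the replicate block the number of regulators called lower on Day 10 against Day 7 was 4, and the calls of members stayed at 0. Over all genes tested, 443 were called lower with the block, against 45 in the fit reported.

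Of 795 values of named members and called regulators, 0 changed sign, 13 fell past the threshold of limma and 89 moved by more than the spread of the duplicates. The members had been chosen for a rise of at least 1.0, which made a change of their sign unlikely from the start. The spread allowed was widest for the members whose replicates differed most. Only 23 of the 60 named members were chosen whichever Day 0 or Day 7 array was left out. The dimness of many members on Day 0, under the offset in 135 and 84 of them, limits what can be read from the size of a rise.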
